A study of Mus musculus with 2 samples.

Results

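7SL RNA and the mRNAs of the signal recognition particle (SRP) and its receptor were described in a mouse erythroleukemia cell line. The members were 9 of the 43346 Ensembl genes in the tables. They are the 2 genes for 7SL RNA, Rn7s1 and Rn7s2, the SRP protein genes Srp9, Srp14, Srp19, Srp68 and Srp72, and the receptor genes Srpr and Srprb. Genes were chosen by name for their roles, not by their values, although earlier results of these data were known. All 9 were found and tested.

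Total RNA came from MEL, an established cell line that resembles immature red cell precursors and makes hemoglobin in dimethyl sulfoxide (DMSO). The only condition was 2% DMSO for 5 days, with 2 libraries called replicate 1 and replicate 2. Both are labelled biological replicates, yet they name one biosample record, and part of the spread may be technical. Untreated cells were not analysed here, so nothing below is an effect of DMSO.

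Replicate 1 held 65109488 estimated counts and replicate 2 held 90856320. All 10 erythroid marker genes reached a TPM (transcript level corrected for length and depth) of 1 in both libraries. Their summed TPM was 6571 in replicate 1 and 13722 in replicate 2, and 7 of the 10 were called higher in replicate 2 at 2-fold or more, as were 2.39% of all 15275 rows tested. None of 11 markers of other blood and tissue cells reached a TPM of 1 in either library. Their highest TPM was 0.170 in replicate 1 and 0.120 in replicate 2, and their highest count was 189 and 227. Protein-coding genes held only 13.5% and 12.9% of all TPM, which makes a TPM of 1 a strict bound for an mRNA. The part of the erythroid difference between the libraries in the results below was not tested.

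SRP is a ribonucleoprotein that binds the signal sequence of a protein as it leaves the ribosome and brings the ribosome to the endoplasmic reticulum. Its scaffold is 7SL RNA, made by RNA polymerase III. The Alu domain, with SRP9 and SRP14, slows translation, and the S domain, with SRP19, SRP54, SRP68 and SRP72, recognises the signal. The SRP receptor, a pair of subunits encoded by Srpr and Srprb, takes up the particle at the membrane, where the nascent chain passes to the Sec61 channel.

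The annotated RNAs of Rn7s1 and Rn7s2, both on chromosome 12, are 300 nt long and identical at every base in the GENCODE M21 transcripts. Reads from the copies therefore cannot be told apart, and their values were summed.

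7SL RNA took a large share of the estimated counts in both libraries. Rn7s1 and Rn7s2 together held 7645493 estimated counts in replicate 1 and 13156366 in replicate 2. The pair took 11.74% of the total in replicate 1, with a 95% Wilson interval from 11.73 to 11.75. In replicate 2 it took 14.48%, from 14.47 to 14.49, and the mean was 13.1% ± 1.94 (SD, n = 2). Without annotated rRNA, mitochondrial rRNA and tRNA rows in the total, the mean was 13.2%. These are shares of estimated counts, not of all RNA in the cell. About 1 count in 8.52 was 7SL in replicate 1 and 1 in 6.91 in replicate 2. The intervals do not overlap, but they cover counting error only and not the spread between libraries. Set against mRNA, 17.9 counts of 7SL in replicate 1 and 21 in replicate 2 accompanied every 100 counts of protein-coding genes (19.5 ± 2.22, SD, n = 2).

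On the TPM scale, which divides by the length open to reads, 7SL summed to 217083 in replicate 1 and 235682 in replicate 2 (226382 ± 13152, SD, n = 2). That was 21.7% and 23.6% of all TPM, a larger share than by counts. The tables gave the 300-nt RNA an effective length of 146 nt in replicate 1 and 139 nt in replicate 2, so its annotated length was 2.05 and 2.15 times the length used. For the longer Srp72 mRNA that factor was 1.07 and 1.06. The labels give a library size range of 300 to 350, without saying whether adapters are included. Effective lengths of 146 and 139 nt for a 300-nt RNA mean that the fragments assumed for TPM were shorter than that range.

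Counts of 7SL scaled by the TMM method, which matches the bulk of genes between libraries, were higher in replicate 2 by 0.33 on the log2 scale (95% interval 0.33 to 0.33), a 1.26-fold difference. The interval covers counting error only. Of 7637 protein-coding genes with a mean of 1000 or more counts, 29.2% differed between the libraries by as much or more. The size of the 7SL difference was therefore ordinary for these libraries, although its counting error is very small.

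How 7SL divides between its gene copies could not be read from these data. Rn7s1 (ENSMUSG00000099021.1) was given 3800360 counts in replicate 1 and 6551856 in replicate 2. Rn7s2 (ENSMUSG00000099250.1) was given 3845133 and 6604510. Rn7s1 thus took 49.7% of the pair in replicate 1 and 49.8% in replicate 2, a nearly even division of reads that fit both copies equally.

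The authors' posterior standard deviation shows that uncertainty. It was 1533955 counts for Rn7s1 in replicate 1, 40.4% of its count, and 40.1% in replicate 2. The authors' TPM interval for Rn7s1 ran from 42847 to 187517 in replicate 1, around a TPM of 107906. For Rn7s2 it ran from 28897 to 173590, around 109177. With the authors' posterior mean counts Rn7s1 took 56.1% of the pair on average instead of 49.8%, so the split moved with the estimator while the sum did not.

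**Figure D1:**
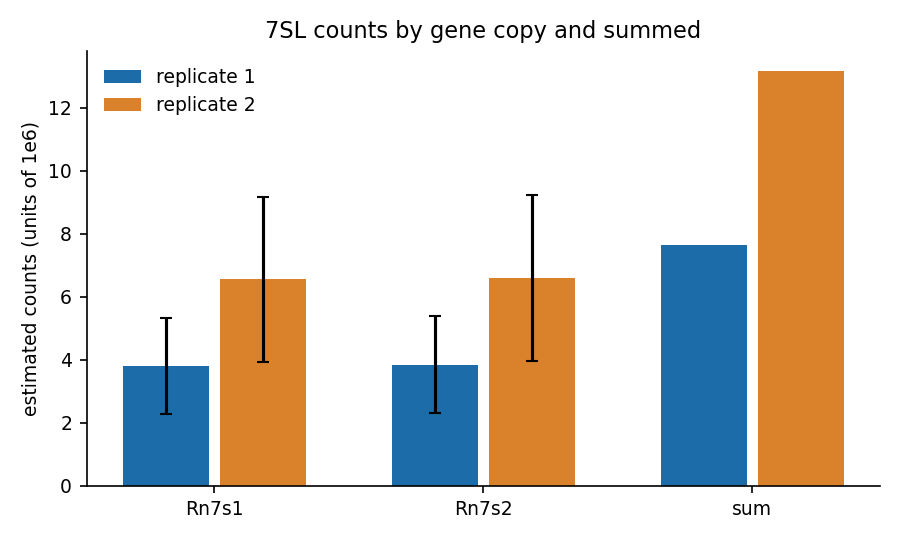
Estimated counts (y axis, in units of 1e6) for Rn7s1, Rn7s2 and their sum (x axis) in replicate 1 (blue) and replicate 2 (orange). Error bars on the single copies are the authors' posterior standard deviation of the count, 39.8% to 40.4% of it, and the sum is drawn without a bar.

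The copies lie 201588 bp apart on opposite strands of chromosome 12. The nearest protein-coding gene to Rn7s1 is Rps29, a ribosomal protein gene that starts 109 bp away on the other strand. For Rn7s2 it is Nemf, a gene of ribosome quality control, 4017 bp away. The M21 annotation also places miRNA entries that overlap both copies, Gm47287 and Gm47295 at Rn7s1 and Gm47299 and Gm47305 at Rn7s2. These entries have no rows in the tables, so reads of 7SL were not shared out to them.

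Other genomic relatives of 7SL added almost nothing. Besides the pair, 9 rows of the tables matched 7SL over at least 200 nt, at 64.6% to 91.4% identity, and 4 of these had a count of 0 in both libraries. Together the 9 held 3387 counts in replicate 1 and 6542 in replicate 2, which is 0.0443% and 0.0497% of the pair.

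Nearly all of those counts were Rn7s6, with 3319 in replicate 1 and 6455 in replicate 2, a TPM of 100 and 124. Its posterior standard deviation was only 19.7 and 24.6 counts. Of its 31-nt words, 54.8% also occur in 7SL and the rest do not. Rn7s6 was higher in replicate 2 by 0.51 on the log2 scale (95% interval 0.45 to 0.57), the same direction as the pair. Gm26461 held 63 and 74 counts, and Gm24514, the next by count, held 5 in each library.

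The mRNAs of the SRP proteins and the receptor were far below 7SL and lay between a TPM of 4.92 and 30.2. All 7 ranked above at least 84.6% of the 21474 protein-coding genes in each library. TPM was lower in replicate 2 for all 7, as it was for most mRNAs. The median log2 ratio of TPM over the 7637 protein-coding genes was -0.26, against 0.04 for TMM-scaled counts. Comparisons between the libraries below therefore use the scaled counts, and TPM serves to compare genes within a library.

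Srp14 and Srp9 encode the pair that binds the Alu domain. Srp14 (ENSMUSG00000009549.10, chromosome 2, 118475850 to 118479711) had a TPM of 30.2 in replicate 1 and 24.5 in replicate 2 (27.4 ± 3.99, SD, n = 2), from 4673 and 6234 counts. Srp9 (ENSMUSG00000026511.7, chromosome 1, 182124737 to 182132407) had 8.73 and 7.91 (8.32 ± 0.580), from 2534 and 3745 counts. The proteins work as a heterodimer, but the Srp14 mRNA was 3.46 times the Srp9 mRNA in replicate 1 and 3.10 times in replicate 2.

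Between the libraries Srp14 counts had a log2 ratio of -0.03 (95% interval -0.09 to 0.02, exact binomial test, adjusted p = 0.299). Srp9 was higher in replicate 2 by 0.11 (0.04 to 0.19, exact binomial test, adjusted p = 0.00440). This Srp9 difference depended on scaling, and it was 0.01 when libraries were scaled by total counts of protein-coding genes. One transcript led each gene, with 98.8% and 98.3% of the TPM of Srp14 and 86.7% and 85.3% of that of Srp9. A shorter coding transcript of Srp9, 823 nt against 1367 nt, held 10.4% and 12.4%.

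Over all transcripts of each gene, the S domain genes Srp68, Srp72 and Srp19 followed Srp14 in level, in that order in both libraries. With coding transcripts alone, Srp72 had a TPM of 7.90 in replicate 1 and 8.01 in replicate 2. That was below Srp19, at 11.8 and 9.94. SRP68 and SRP72 bind the RNA as a heterodimer, and SRP19 prepares it for SRP54. Srp68 (ENSMUSG00000020780.11, chromosome 11, 116245166 to 116274217) had a TPM of 17.9 in replicate 1 and 12.2 in replicate 2 (15.0 ± 4.03), from 9993 and 11232 counts. Srp72 (ENSMUSG00000036323.10, chromosome 5, 76974683 to 76999937) had 14.3 and 11.4 (12.8 ± 2.04), from 7632 and 12187 counts. Srp19 (ENSMUSG00000014504.12, chromosome 18, 34330847 to 34336599) had 12.1 and 10.2 (11.2 ± 1.34), from 2120 and 2888 counts. Within each library the authors' TPM intervals for the 3 genes did not overlap. Across the libraries the values of Srp68 and Srp72 overlapped, as did those of Srp72 and Srp19, on a scale that was lower for most mRNAs in replicate 2.

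By scaled counts the partners of the S domain heterodimer differed in opposite directions. Srp68 was lower in replicate 2 by a log2 ratio of -0.28 (95% interval -0.32 to -0.24, exact binomial test, adjusted p = 2.7e-44). Srp72 was higher in replicate 2 by 0.23 (0.18 to 0.27, exact binomial test, adjusted p = 3.7e-26). Srp19 gave 0.00 (-0.09 to 0.08, exact binomial test, adjusted p = 0.967). The Srp68 and Srp72 differences were both under the 2-fold size required for a call. Differences as large as that of Srp72 were seen in 46.2% of protein-coding genes, and as large as that of Srp68 in 36.8%.

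**Figure D2:**
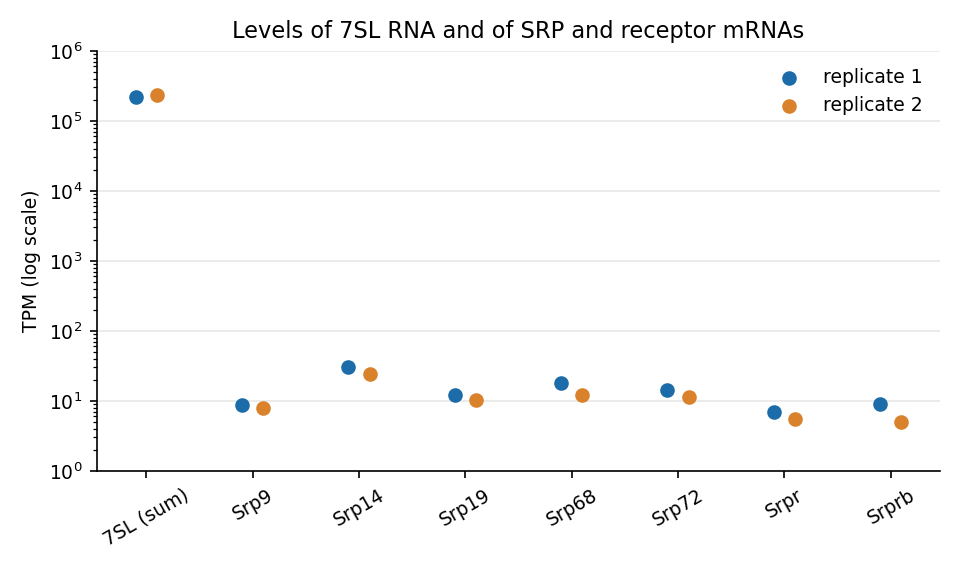
TPM on a log axis for summed 7SL RNA and each SRP and receptor mRNA, with 1 point per library (replicate 1 blue, replicate 2 orange). The 7SL points lie at 217083 and 235682, and all mRNA points lie between 4.92 and 30.2.

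Measured per length, 7SL RNA far exceeded the mRNAs of its protein partners. Summed 7SL was 15213 times the median TPM of the 5 SRP protein mRNAs in replicate 1 and 20710 times in replicate 2 (17961 ± 3887, SD, n = 2). Against Srp14, the most abundant of them, the ratio was 7193 and 9604. The value depends on the length used for 7SL, and with annotated lengths in place of effective lengths the mean ratio was 9530. A structural RNA of the particle and mRNAs that are translated many times are not counted in the same role, so the ratio describes RNA and not subunits.

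Srp72 was the member whose transcript make-up differed most between the libraries. Its full coding transcript (ENSMUST00000101087, 3625 nt) held 55.0% of the gene's TPM in replicate 1 and 70.2% in replicate 2. The 7 annotated retained-intron transcripts, which keep intron sequence and are not assigned a coding frame, held 44.7% and 29.8%. Most of that was ENSMUST00000150661, a 660-nt model, at 29.1% and 16.6%. Counts gave a smaller share to the retained introns, 13.6% in replicate 1 and 8.94% in replicate 2, since TPM divides the counts of a short model by a short length.

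Gene TPM of Srp72 was lower in replicate 2 while its scaled counts were higher, and the same held for Srp9. Within each transcript type of Srp72, TPM and scaled counts had the same direction. Coding transcripts of Srp72 alone had a TPM of 7.90 in replicate 1 and 8.01 in replicate 2. These are nearly the same, on a scale that was lower for most mRNAs in replicate 2. The retained-intron transcripts had 6.37 and 3.38. Scaled counts of the coding transcripts were higher in replicate 2 by a log2 ratio of 0.30 (95% interval 0.26 to 0.35), and those of the retained-intron transcripts lower by -0.38 (-0.50 to -0.25). With coding transcripts only, the Srp68 to Srp72 ratio averaged 1.87 in place of 1.16, so the near equality of these partners rests on counting short retained-intron models in the level of Srp72.

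Retained-intron shares were lower in replicate 2 for many genes. Among 3359 protein-coding genes with such a transcript and 1000 or more counts, the median share of TPM was 12.3% in replicate 1 and 10.2% in replicate 2. The share was higher in replicate 1 for 72.7% of them. Srp72 lay toward the end of this distribution, with 7.80% of the genes at or above it in replicate 1 and 17.0% in replicate 2. Its drop of 15.0 percentage points compares with a median drop of 1.24, and 1.31% of the genes dropped as far.

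**Figure D3:**
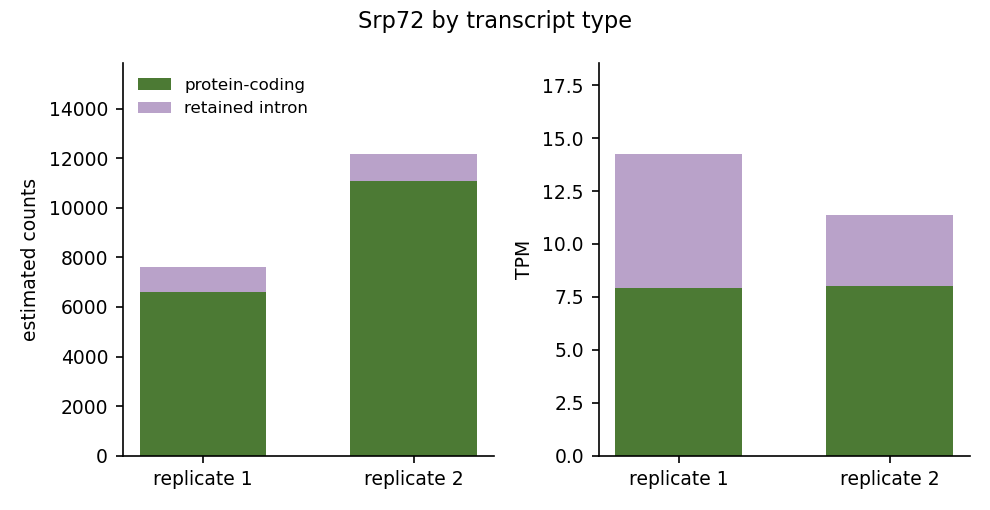
Estimated counts (left) and TPM (right) of Srp72 in each library, stacked by annotated transcript type (protein-coding green, retained intron purple). The coding part is 7.90 and 8.01 TPM, while the retained-intron part is 6.37 in replicate 1 and 3.38 in replicate 2.

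The other SRP protein genes had steadier transcript shares. Srp68 was led by a 2526-nt coding transcript with 81.8% of TPM in replicate 1 and 79.2% in replicate 2, and a second of 2330 nt held 16.8% and 19.2%. Srp19 was led by an 876-nt coding transcript with 73.8% and 74.3%, and a second of 613 nt held 23.2% and 23.1%.

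By mean TPM the receptor mRNAs were the least abundant members, although Srprb lay above Srp9 in replicate 1. Srpr encodes the alpha subunit, the GTPase that meets SRP54, and Srprb encodes the beta subunit, a membrane GTPase that anchors it. Srpr (ENSMUSG00000032042.7, chromosome 9, 35200175 to 35247973) had a TPM of 6.85 in replicate 1 and 5.44 in replicate 2 (6.14 ± 0.997), from 4647 and 6150 counts. Srprb (ENSMUSG00000032553.10, chromosome 9, 103188032 to 103202137) had 8.94 and 4.92 (6.93 ± 2.84), from 6291 and 5734 counts. Srprb was above Srpr in replicate 1, at 1.31 times, and below it in replicate 2, at 0.904 times, so the subunits have no set order.

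Srprb differed most between the libraries among the members. Its scaled counts were lower in replicate 2 by a log2 ratio of -0.58 (95% interval -0.64 to -0.53, exact binomial test, adjusted p = 3.2e-107), a 1.5-fold difference. Only 4.10% of the 7637 protein-coding genes were as low or lower, and 8.69% differed as much in either direction. Srpr had a log2 ratio of -0.05 (-0.10 to 0.01, exact binomial test, adjusted p = 0.155). The Srprb difference stayed under the 2-fold size required for a call.

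The Srprb difference lay mainly in its coding RNA. The leading coding transcript held 93.1% of TPM in replicate 1 and 95.2% in replicate 2. Coding transcripts alone had a log2 ratio of -0.55 (95% interval -0.60 to -0.50), and the retained-intron transcript, with 448 and 286 counts, had -1.10 (-1.32 to -0.88). Srpr was almost wholly 1 transcript, at 99.0% and 99.5%.

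Shared reads are a small concern for the mRNA members. The authors' posterior standard deviation was at most 0.563% of the count for any of the 7, reached by Srp9 in replicate 1. Exons of the leading transcripts of 5 members overlap no other annotated gene. Srpr overlaps the opposite-strand gene Fam118b (1229 and 1728 counts) by 50 bp, and Srprb overlaps Gm20425 on its own strand by 888 bp, but Gm20425 was listed at 0 counts in both libraries. Whether the counting used strand is not given in the sources used here.

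Across the 9 members none was called different between the libraries at an adjusted p under 0.05 and 2-fold or more. Of the 15275 rows tested, 6.30% were called, 2.39% as higher in replicate 2 and 3.91% as lower. Of the 7637 protein-coding genes with a mean of 1000 or more counts, 1.37% were called. By adjusted p alone 4 members were higher (Rn7s1, Rn7s2, Srp9 and Srp72) and 2 lower (Srp68 and Srprb), where 31.3% of all rows were higher and 30.1% lower. That is 44.4% and 22.2% of 9 members, on which 1 gene more or less weighs heavily. Among the protein-coding genes with a mean of 1000 or more counts, 45.3% were higher and 34% lower. Reads of Rn7s1 and Rn7s2 cannot be told apart, so these 2 members are not separate results. The test compares the reads of 2 libraries, and in bulk RNA fewer cells of a kind and less RNA per cell cannot be told apart.

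**Figure D4:**
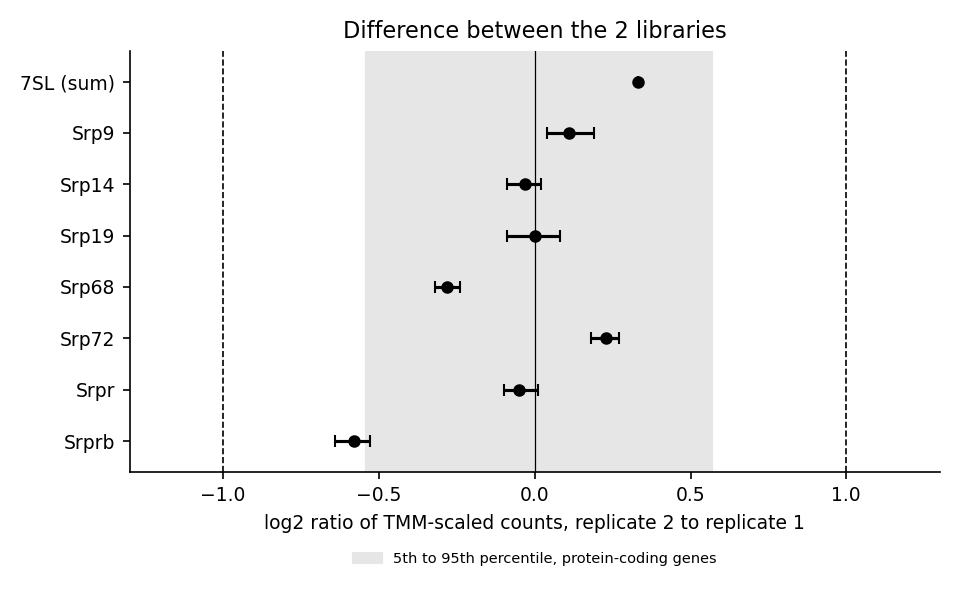
Log2 ratio of TMM-scaled counts in replicate 2 to replicate 1 for summed 7SL and each mRNA member, with exact 95% intervals for counting error. The grey band spans the 5th to 95th percentile of 7637 protein-coding genes (-0.54 to 0.57), dashed lines mark 2-fold, and Srprb at -0.58 alone lies outside the band.

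SRP54, the GTPase of the S domain, is encoded in mouse by near-identical genes and was taken as a pathway gene. All counts of the matched copies were listed under Srp54c, 8849 in replicate 1 and 12906 in replicate 2, with a TPM of 13.3 and 11.9. That is close to the median of the 5 SRP protein members, 14.3 and 11.4. Srp54a was listed at 0 counts in both libraries. The 1515-nt Srp54a transcript shares 90.3% of its 31-nt words with Srp54c, and 144 words are its own. The authors' posterior standard deviation of the Srp54c count was small, 4.64 counts in replicate 1 and 6.18 in replicate 2. The Srp54b identifier did not match a row.

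The Srp54c mRNA came from 2 coding transcripts, at 61.7% and 38.3% of TPM in replicate 1 and 57.3% and 42.7% in replicate 2. Its log2 ratio between the libraries was 0.09 (95% interval 0.06 to 0.13, exact binomial test, adjusted p = 5.4e-06).

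The wider pathway comprised 73 matched genes, of which 72 were tested, and 0 were called between the libraries at 2-fold. At that size 6.30% of all rows were called, and 1.37% of protein-coding genes with a mean of 1000 or more counts. By adjusted p alone 19 pathway genes were higher in replicate 2 (26.4%) and 35 lower (48.6%). This compares with 31.3% higher and 30.1% lower over all rows, and with 45.3% higher and 34% lower among protein-coding genes with a mean of 1000 or more counts. Their median log2 ratio was -0.06, against 0.00 over all rows tested and 0.04 over those protein-coding genes. Values ran from -0.71 for Wrb, a receptor of tail-anchored proteins, to 0.50 for Maf1, a repressor of RNA polymerase III that is named here after its value was seen. At 1.5-fold in place of 2-fold, Wrb and the polymerase subunit gene Polr3d (-0.68) were called lower, while 15.8% of all rows were called.

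The Sec61 channel and its partners receive the nascent chain at the membrane. The 8 genes of this list had a median TPM of 8.18 in replicate 1 and 8.31 in replicate 2. Sec61b, the beta subunit of the channel, was highest at 43.3 and 36.2, and Tram2 was lowest at 0.300 and 0.210. Of the 8 genes, 4 were higher in replicate 2 and 3 lower by adjusted p, where 31.3% of all rows were higher and 30.1% lower. The 4 genes of the translocon-associated TRAP complex had a median of 23.0 and 16.1, with 3 of 4 lower by adjusted p and none higher, against 30.1% of all rows lower and 31.3% higher. They ranged from Ssr1 at 5.87 and 4.48 to Ssr2 at 60.2 and 36.5.

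Enzymes that act on the chain in the lumen followed. The 5 genes of signal peptidase, which removes the signal sequence, had a median TPM of 16.2 in replicate 1 and 13.5 in replicate 2, from Spcs2 (6.19 and 4.50) to Spcs1 (25.9 and 23.6). The 11 genes of oligosaccharyltransferase, which adds N-linked sugars, had a median of 19.6 and 11.7, from Tusc3 (5.03 and 5.30) to Tmem258 (57.5 and 47.5). Of these 11 genes, 8 were lower in replicate 2 by adjusted p (72.7%, against 30.1% of all rows) and 2 higher (18.2%, against 31.3%). Their median log2 ratio was -0.21. Signal peptidase had 2 lower and 1 higher, with a median of 0.02.

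Other proteins enter the membrane by other routes. The 7 genes of the GET pathway for tail-anchored proteins had a median TPM of 10.1 in replicate 1 and 8.95 in replicate 2, from Ubl4a (4.31 and 2.97) to Bag6 (21.1 and 16.7). The 10 genes of the ER membrane protein complex, an insertase, had 9.40 and 8.46, from Mmgt1 (2.81 and 2.08) to Emc8 (19.8 and 13.0). Of the 10 genes, 7 were lower in replicate 2 by adjusted p and 1 higher, where 30.1% of all rows were lower and 31.3% higher. Their median log2 ratio was -0.18. The GET genes had 1 lower and 2 higher, with a median of 0.00.

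The nascent chain complex covers new chains that lack a signal and limits SRP binding to them. Its mRNAs stood above those of the SRP proteins in level. Btf3 had a TPM of 108 in replicate 1 and 96.1 in replicate 2, and Naca had 87.3 and 82.7. Both were higher in replicate 2 by adjusted p, as were 31.3% of all rows, with log2 ratios of 0.20 for Btf3 and 0.19 for Naca. The lower of the pair, Naca, was above every SRP protein mRNA in both libraries.

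RNA polymerase III transcribes 7SL. Its 13 core subunit genes had a median TPM of 4.86 in replicate 1 and 3.15 in replicate 2, from Polr3b (2.10 and 1.66) to Polr1d (43.9 and 36.7), a subunit shared with RNA polymerase I. By adjusted p 8 of the 13 were lower in replicate 2 (61.5%, against 30.1% of all rows) and 3 higher (23.1%, against 31.3%). Their median log2 ratio was -0.12. The 11 genes of polymerase III factors and La had a median of 4.41 and 3.54, with 3 higher and 3 lower and a median log2 ratio of -0.01. Ssb, which encodes La, the protein that binds the 3′ end of new polymerase III transcripts, was highest at 20.1 and 19.8, and Gtf3c3 was lowest at 1.76 and 1.84.

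**Figure D5:**
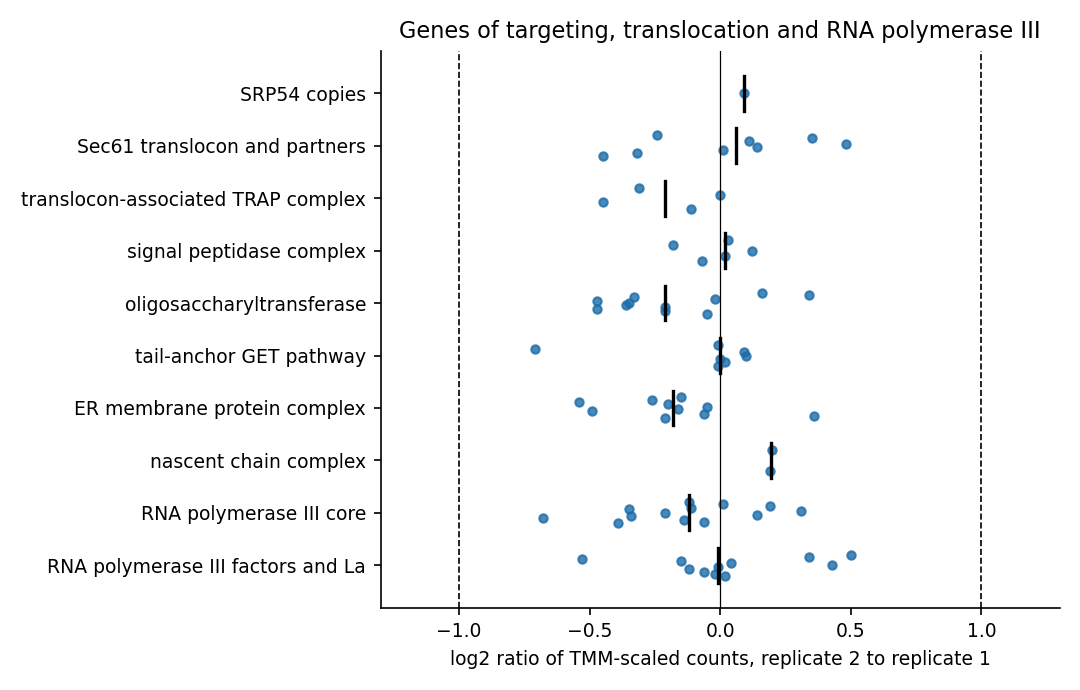
Log2 ratio of TMM-scaled counts in replicate 2 to replicate 1 for the 72 tested pathway genes (points), grouped by list, with a black bar at each list's median and dashed lines at 2-fold. All points lie between -0.71 and 0.50, and the lowest medians, -0.21, are those of oligosaccharyltransferase and the TRAP complex.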

How the data were processed

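Each library of MEL total RNA came with a gene and a transcript table. The readme deposited with them names mm10 and GENCODE M4. Neither aligner nor quantification program is given in the sources used here. The authors, per the file headers, gave an estimated count, a posterior mean count with its standard deviation, TPM with an interval whose level is not given, FPKM, effective length and, for transcripts, the percent of the gene's TPM. TPM and that percent were used as deposited by the authors, and FPKM as an alternative.

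Names, types and coordinates (1-based) came from GENCODE M21 on GRCm38, matched by gene ID without version. Rn7s1 and Rn7s2 were summed. 7SL relatives were transcripts matching over at least 200 nt by BLAST 2.17.0, and the sequences are not reported here. Estimated counts were rounded, scaled by TMM (edgeR 4.0.16, R 4.3.3) and compared between libraries by a two-sided exact binomial test of each row with 10 or more counts in either library, with Benjamini-Hochberg adjustment over all rows. A call needed an adjusted p under 0.05 and 2-fold. Log2 ratios had 0.5 added and exact Clopper-Pearson 95% intervals. The procedure was run on simulated counts drawn from the binomial model that the test assumes, with no added spread between libraries. That run cannot show how the test behaves on real libraries. Reads are not independent molecules, so all intervals cover counting error only. A count of 0 allows up to 3 counts (0.0461 CPM in replicate 1 and 0.0330 in replicate 2).

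Members and lists were chosen with earlier results of these data known. Named pathway genes are the SRP54 copies, the highest and lowest of each list by mean TPM and any called. Also named were leading transcripts, others at 10% or more of their gene in both libraries, and the 3 relatives of 7SL with the most counts. The retained-intron comparison over all genes was added after the values of Srp72 were seen. Srp54b and Gtf3c2 did not match. Alternatives were DESeq2 1.42.0 size factors and total counts for scaling, other count and fold thresholds, other length and level measures, and each library left out.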

Additional observations from a re-analysis of the deposited data

How the results depend on the processing

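With 2 libraries of 1 condition, leaving either out leaves a single library and no spread. Those values were 11.7% to 14.5% for the 7SL share of counts, 217083 to 235682 for its TPM, 15213 to 20710 for its ratio to SRP protein mRNAs, 49.7% to 49.8% for the Rn7s1 share, 3.10 to 3.46 for Srp14 to Srp9, 1.07 to 1.25 for Srp68 to Srp72 and 0.904 to 1.31 for Srprb to Srpr. With n = 2 these say nothing of stability. Of 93 other alternatives, 75 kept their value within 1 SD of the libraries or their side of the threshold. Against protein-coding counts 7SL was 19.5% instead of 13.1%. Its summed level, 226382 TPM, was 922131 as FPKM, 335678 with annotated exon length and 409702 when TPM was rescaled over rows longer than 200 nt. Annotated length gave 9530 instead of 17961 for 7SL to SRP protein mRNAs and 3.0 instead of 3.28 for Srp14 to Srp9. Posterior mean counts gave Rn7s1 56.1% of the pair. Coding transcripts alone, chosen after seeing the data, gave 1.87 instead of 1.16 for Srp68 to Srp72 and a TPM of 7.96 for Srp72. At 1.5-fold, 2 pathway genes were called instead of 0. Srp19 changed sign with DESeq2 size factors, at 0.00 under both scalings. Rescaling over protein-coding genes raised all 7 mRNA levels, to between 46.4 (Srpr) and 207 (Srp14). Scaling by total counts of protein-coding genes, also chosen after seeing the data, gave log2 ratios of 0.23 for 7SL, 0.01 for Srp9 and -0.68 for Srprb. The causes of these shifts were not tested beyond what each setting itself changes.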
